A study of Mus musculus with 9 samples.

Results

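The 10 genes described here encode a regulator, enzymes of the route that makes fatty acids from citrate, and enzymes that lengthen or desaturate fatty acids. They were taken by gene symbol from the table of reads per gene, and are Srebf1, Acly, Acaca, Fasn, Scd1, Scd2, Elovl5, Elovl6, Fads1 and Fads2. All 10 were among the 57238 entries of the table, and all 10 were among the 15028 genes that passed the filter on low counts. The rule itself used no measured value, but the genes were picked with earlier results of these data known.

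In this route ATP citrate lyase splits citrate into acetyl-CoA, acetyl-CoA carboxylase turns that into malonyl-CoA, and fatty acid synthase joins the units into palmitate. Elongases extend the chain, stearoyl-CoA desaturases place the first double bond to give oleate and palmitoleate, and the FADS enzymes desaturate the essential fatty acids on the way to arachidonate and related lipids. The transcription factor SREBP1, encoded by Srebf1, is the classical activator of these enzymes and is itself induced by the oxysterol receptor LXR, while its relative SREBP2 mainly drives cholesterol synthesis. In dendritic cells the enzymes supply membranes and lipid droplets.

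The cells were dendritic cells grown from the bone marrow of wildtype C57BL/6 mice (BMDCs) with 20 ng/ml of the growth factor GM-CSF, for 6 days by the labels of the libraries and somewhat longer by the methods. In the CTR group nothing was added. The NE group was given exosomes, small secreted vesicles, of NIH-3T3 cells, a mouse fibroblast line that is not cancerous, for 24 h, and the TDE group was given tumor cell exosomes for the same time. Each group had 3 libraries. The labels do not name the tumor line, and no source used here says whether the 3 libraries of a group came from separate cultures or mice, so the p-values measure the spread between these libraries, which may be technical. The comparisons ask whether tumor exosomes change the lipid-synthesis genes of BMDCs, and whether exosomes of a non-cancerous line do the same.

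The libraries held between 17469782 and 21092943 estimated reads on genes. Levels are given as CPM, reads per 1000000 after normalization by the trimmed mean of M values (TMM), and 3 reads, the floor under which no level is read, came to between 0.136 and 0.190 CPM. CTR replicate 1 stood apart. Its TMM factor was 0.751 against 0.9995 to 1.07 in the other 8 libraries, and its highest correlation with any library (log2 CPM over all genes tested) was 0.8995, below the lowest value of 0.9415 between any pair of the other 8. Values without it are therefore given beside the results that it moved most. The dendritic cell markers Itgax (107 to 178 CPM), Flt3 (11.6 to 16.0 CPM) and Zbtb46 (13.7 to 19.9 CPM) were present in all 9 libraries. So were macrophage markers such as Csf1r (1371 to 2116 CPM) and neutrophil markers such as Ltf (234 to 2923 CPM). In RNA of a whole culture, fewer cells of a type and less RNA per cell cannot be told apart.

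Among the 10 genes, TDE-treated BMDCs had more RNA of 1 desaturase, Scd2, and less of Fasn, Fads1 and Fads2 than CTR BMDCs. Scd2 was 2.97-fold higher, Fasn 2.16-fold lower, Fads2 1.89-fold lower and Fads1 1.39-fold lower. The same 4 genes passed the test, in the same directions, when TDE-treated were compared with NE-treated BMDCs, a comparison that uses the same TDE libraries. The test was the quasi-likelihood F test of edgeR, with p-values adjusted by the Benjamini-Hochberg method over all genes tested (adjusted p) and a threshold of 0.05. Against CTR, 1 of the 10 genes was higher, where 7.57% of all genes tested were higher, and 3 were lower, where 9.34% were lower. Against NE, 1 of the 10 was higher against 6.73% of all genes tested, and 3 were lower against 7.21%. The median log2 fold change of the 10 genes was -0.003 against CTR and -0.36 against NE, beside -0.055 and -0.02 over all genes tested.

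**Figure D1:**
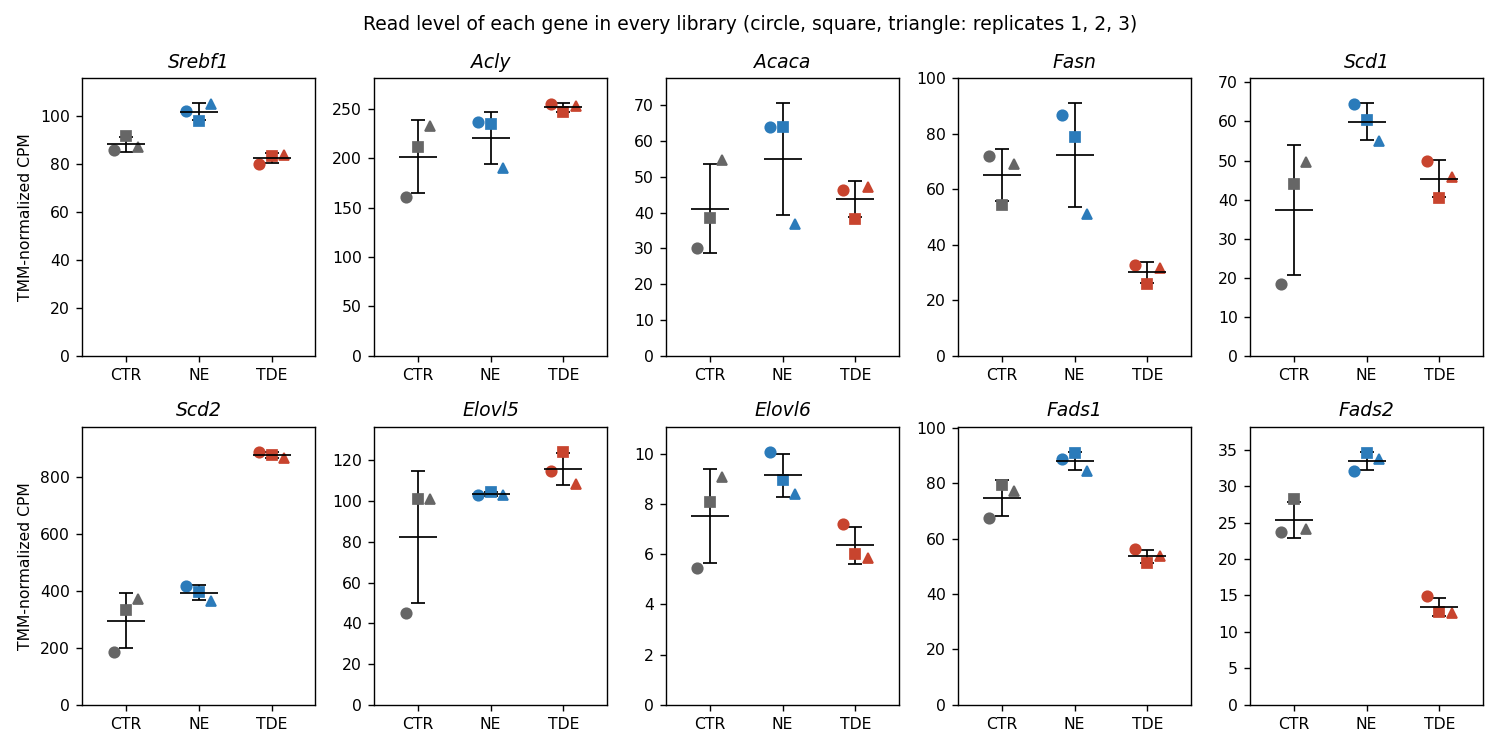
Read level of each of the 10 genes in every library, as TMM-normalized CPM on a linear axis from 0, for CTR (grey), NE-treated (blue) and TDE-treated (red) BMDCs. Bars give the mean and SD of 3 libraries, and symbols mark the replicate. The 3 TDE libraries of Scd2 lie between 866 and 888 CPM, above all CTR and NE libraries, and those of Fasn, Fads1 and Fads2 lie below all of them.

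Srebf1 (chr11:60199089-60222581, minus strand, build GRCm38 by GENCODE vM21) passed the test in neither comparison. It stood at 85.8, 91.8 and 86.9 CPM in the CTR libraries, at 102, 98.0 and 105 CPM in the NE libraries and at 79.8, 83.4 and 83.5 CPM in the TDE libraries. The TDE libraries were the lowest of the 3 groups and the NE libraries the highest, without overlap, but the differences were small. The log2 fold change of TDE against CTR was -0.10 (SE 0.11, 95% confidence interval -0.34 to 0.14, adjusted p = 0.513), and that of TDE against NE was -0.31 (SE 0.11, adjusted p = 0.0988). Without CTR replicate 1 the second value was -0.31 with an adjusted p of 0.00420. Exons of Srebf1 overlap those of Rai1 on the other strand, and whether the counting used strand is not given in the sources used here, so reads of the overlap may belong to either gene.

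The enzymes that make palmitate did not move together. Acly (chr11:100476353-100528000, minus strand), ATP citrate lyase, stood at 161, 212 and 232 CPM in CTR, at 236, 234 and 190.0 CPM in NE and at 254, 246 and 253 CPM in TDE libraries. All TDE libraries lay above all others, and CTR replicate 1 was the lowest library. Against CTR the log2 fold change was 0.32 (SE 0.17, 95% interval -0.07 to 0.70, adjusted p = 0.209) and, without CTR replicate 1, 0.17 (adjusted p = 0.243).

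Acaca (chr11:84129672-84401651, plus strand) encodes the cytosolic acetyl-CoA carboxylase, the committed step of the route. Its levels were 30.1, 38.4 and 54.7 CPM in CTR, 63.9, 63.9 and 36.9 CPM in NE and 46.2, 38.1 and 47.2 CPM in TDE libraries. The 3 groups overlapped, and the 95% interval of the log2 difference between TDE and CTR ran from -0.54 to 0.72 (adjusted p = 0.819). CTR replicate 1 set the sign, as the log2 fold change was 0.09 with it and -0.10 without it. Estimated reads of Acaca were not whole numbers in most libraries, for example 851.36 in CTR replicate 2. Part of its reads may therefore have been divided with another entry.

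Fasn (chr11:120805846-120824547, minus strand), fatty acid synthase, fell. Its levels were 72.1, 54.4 and 69.2 CPM in CTR, 86.8, 78.8 and 51.1 CPM in NE and 32.9, 25.9 and 31.6 CPM in TDE libraries. Every TDE library lay below every CTR and NE library, with NE replicate 3 the lowest of the others. The mean of 65.2 ± 9.49 CPM (SD, n = 3) in CTR compared with 30.1 ± 3.73 CPM in TDE, a log2 fold change of -1.11 (SE 0.22, adjusted p = 0.0120), and against NE the log2 fold change was -1.26 (SE 0.22, adjusted p = 0.00747). Without TDE replicate 2 or 3 the adjusted p against CTR rose to 0.0626 and 0.0519, and without CTR replicate 1 the log2 fold change was -1.05 (adjusted p = 0.00528).

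The promoter of Fasn is shown because Fasn was the gene of the 10 that fell most against CTR. It is the 250 bases before the start of the transcript in RefSeq (chr11:120824548-120824797, minus strand, build GRCm38.p6), and the capitals mark the CCAAT box, the motif of the factor NF-Y, on either strand.
Fasn promoter: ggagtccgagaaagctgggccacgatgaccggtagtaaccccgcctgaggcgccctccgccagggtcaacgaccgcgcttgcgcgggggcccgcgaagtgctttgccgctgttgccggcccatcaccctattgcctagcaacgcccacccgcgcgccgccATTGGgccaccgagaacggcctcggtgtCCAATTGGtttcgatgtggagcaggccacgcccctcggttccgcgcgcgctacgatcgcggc
The motifs searched, on both strands of such windows, were CCAAT, the E-box CACGTG and the sterol element TCACNCCAC. The Fasn window held 3 matches to CCAAT, 2 of which overlap in a palindrome, and none to the others. Of the SREBP2 targets listed below, Hmgcs1 had the sterol element in its window, while Cyp51 and Idi1, for example, did not. The absence of a match therefore cannot tell whether SREBP acts on Fasn. CCAAT was found in 33.85% of the 32851 windows in the RefSeq table, the E-box in 6.02% and the sterol element in 1.05%.

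The 2 stearoyl-CoA desaturases, which introduce the double bond of oleate, differed in their response. Scd2 (chr19:44293674-44306864, plus strand), the isoform known for its abundance in brain, stood at 185, 332 and 370.5 CPM in CTR, at 418, 397 and 364 CPM in NE and at 888, 877 and 866 CPM in TDE libraries. The TDE libraries lay within a narrow range at more than 2 times the level of any other library. The log2 fold change against CTR was 1.57 (SE 0.24, adjusted p = 0.00446), and 1.31 without CTR replicate 1, the lowest library (adjusted p = 9.9e-06). Against NE it was 1.16 (SE 0.24, adjusted p = 0.0153). That call was lost when any one of the NE or TDE libraries was left out, with adjusted p from 0.0589 to 0.0677, while the log2 fold change stayed between 1.12 and 1.204.

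Scd1 (chr19:44394455-44407879, minus strand), the isoform prominent in liver and fat, was measured at 18.5, 44.0 and 49.6 CPM in CTR, at 64.4, 60.4 and 55.0 CPM in NE and at 49.8, 40.4 and 45.9 CPM in TDE libraries. The TDE libraries overlapped CTR and lay below all NE libraries. The log2 fold change was 0.28 against CTR (SE 0.32, 95% interval -0.45 to 1.001, adjusted p = 0.546) and -0.40 against NE (SE 0.32, adjusted p = 0.507). Without CTR replicate 1 these became -0.06 (adjusted p = 0.738) and -0.41 (adjusted p = 0.0104), so that the direction against CTR turned and the call against NE was gained.

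Because the 2 genes are paralogs, part of their reads could have been assigned to either. Their coding sequences, of 1065 and 1074 bases in the GENCODE transcripts Scd1-201 and Scd2-201, were 89.6% identical, and 3.03% of the 50-base windows of the Scd1 transcript also occurred in that of Scd2. The longest identical run was 147 bases. It is given below in capitals with 20 bases on either side, since a short read that lies inside it cannot be placed. Each stretch crosses an intron in the genome (chr19:44400321-44401825, minus strand, and chr19:44299682-44301265, plus strand).
Scd1-201: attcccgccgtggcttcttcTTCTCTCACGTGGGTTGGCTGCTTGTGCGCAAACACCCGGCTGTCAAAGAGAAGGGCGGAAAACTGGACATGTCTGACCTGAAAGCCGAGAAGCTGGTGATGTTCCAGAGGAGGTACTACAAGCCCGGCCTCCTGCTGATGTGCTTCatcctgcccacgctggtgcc
Scd2-201: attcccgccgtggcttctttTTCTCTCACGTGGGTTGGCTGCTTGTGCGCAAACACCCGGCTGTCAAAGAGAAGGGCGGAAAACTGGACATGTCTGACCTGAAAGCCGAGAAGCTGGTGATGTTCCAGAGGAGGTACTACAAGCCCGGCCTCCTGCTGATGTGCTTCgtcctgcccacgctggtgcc
In the 7 libraries in which the estimated reads of both genes were not whole numbers, the sum of the 2 was whole within 0.021 reads, and Scd2 was the only one of the 57238 entries that completed Scd1 in this way. This is the pattern of reads divided between 2 entries. Scd3 and Scd4, the further mouse paralogs, stood at no more than 0.163 and 1.90 CPM.

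The ratio of Scd2 to Scd1, in reads per base of listed gene length within a library, was 8.84, 6.67 and 6.61 in CTR, 5.74, 5.83 and 5.86 in NE and 15.8, 19.2 and 16.7 in TDE libraries. The TDE libraries had the highest ratios of all 9, without overlap. The ratio was 2.35-fold higher in TDE than in CTR and 2.96-fold higher than in NE, with an exact permutation p of 0.10 in both, the smallest that 3 libraries against 3 can give (two-sided, 0.1125 after adjustment over the 9 ratio comparisons made). Without CTR replicate 1 the log2 difference of TDE from CTR was 1.37 instead of 1.23. The NE libraries lay below all CTR libraries, with a log2 difference of -0.33 and the same exact permutation p of 0.10.

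**Figure D2:**
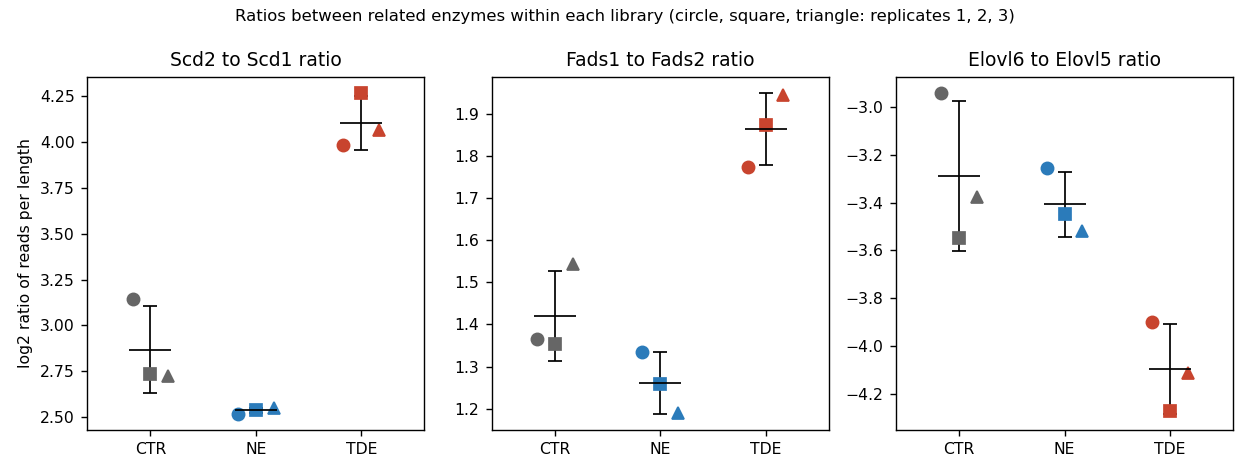
Log2 ratios of reads per base of gene length between related enzymes, for each library of the CTR, NE and TDE groups, with the mean and SD of 3 libraries. The axes do not start at 0. The 3 TDE libraries lie apart from all CTR and NE libraries in each panel: above them for Scd2 to Scd1 and Fads1 to Fads2, and below them for Elovl6 to Elovl5.

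Both FADS genes fell, Fads2 more than Fads1. Fads2 (chr19:10062765-10101746, minus strand) encodes the desaturase of the first step from linoleate and alpha-linolenate. It stood at 23.8, 28.3 and 24.1 CPM in CTR, at 32.1, 34.5 and 33.7 CPM in NE and at 14.9, 12.7 and 12.6 CPM in TDE libraries. The 3 groups did not overlap, with NE the highest. Fads2 changed by a log2 fold change of -0.92 against CTR (SE 0.13, adjusted p = 0.00313) and -1.32 against NE (SE 0.13, adjusted p = 0.000548). Both calls held when any one library was left out, with an adjusted p of 0.0270 at most.

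Fads1 (chr19:10182888-10196877, plus strand), the desaturase of the later step that yields arachidonate, lies in the same gene cluster as Fads2. Its levels were 67.3, 79.3 and 77.3 CPM in CTR, 88.9, 90.8 and 84.5 CPM in NE and 56.1, 51.3 and 53.5 CPM in TDE libraries. The order of the groups was that of Fads2, again without overlap. Against NE the log2 fold change was -0.72 (SE 0.12, adjusted p = 0.00543), and it passed without any one library. Against CTR it was -0.48 (SE 0.12, adjusted p = 0.0281), and this call was lost without CTR replicate 2, without NE replicate 1 or 2 or without any one TDE library, with adjusted p up to 0.130, while the log2 fold change stayed between -0.56 and -0.43.

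Per base of gene length, Fads1 reads were 2.58, 2.55 and 2.92 times those of Fads2 in CTR, 2.52, 2.39 and 2.28 times in NE and 3.42, 3.66 and 3.85 times in TDE libraries. The TDE libraries were again the highest. The ratio was 1.36-fold higher in TDE than in CTR and 1.52-fold higher than in NE, with an exact permutation p of 0.10 in both. The NE libraries lay below all CTR libraries, with a log2 difference of -0.16 and the same p.

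The elongases gave no call. Elovl5 (chr9:77917364-77984519, plus strand), which extends polyunsaturated chains, stood at 44.9, 101 and 101 CPM in CTR, at 103, 104 and 103 CPM in NE and at 115, 124 and 108 CPM in TDE libraries. CTR replicate 1 lay far below the other 8 libraries, and the TDE libraries were the highest. The log2 fold change against CTR was 0.49 (SE 0.28, 95% interval -0.14 to 1.13, adjusted p = 0.236) with that library and 0.19 (adjusted p = 0.0929) without it.

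Elovl6 (chr3:129532355-129638495, plus strand) extends palmitate to stearate, the substrate of the SCD enzymes, and had the lowest level per length of the 10 genes in all 3 groups. It stood at 5.45, 8.08 and 9.08 CPM in CTR, at 10.1, 8.95 and 8.40 CPM in NE and at 7.21, 6.00 and 5.85 CPM in TDE libraries. TDE lay below all NE libraries and below CTR replicates 2 and 3, while CTR replicate 1 was the lowest library of all. Exons of Elovl6 overlap those of Gm35986 on the other strand, so here too reads of the overlap may belong to either gene. Elovl6 differed by a log2 fold change of -0.25 from CTR (SE 0.21, adjusted p = 0.422) and of -0.53 from NE (SE 0.21, adjusted p = 0.158). Without CTR replicate 1 both passed, at -0.44 (adjusted p = 0.0370) and -0.53 (adjusted p = 0.00906). Within libraries the ratio of Elovl6 to Elovl5 per length was 0.130, 0.0854 and 0.0962 in CTR, 0.105, 0.0916 and 0.0873 in NE and 0.0671, 0.0518 and 0.0578 in TDE, lower in every TDE library than in any other (exact permutation p = 0.10 against either group).

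**Figure D3:**
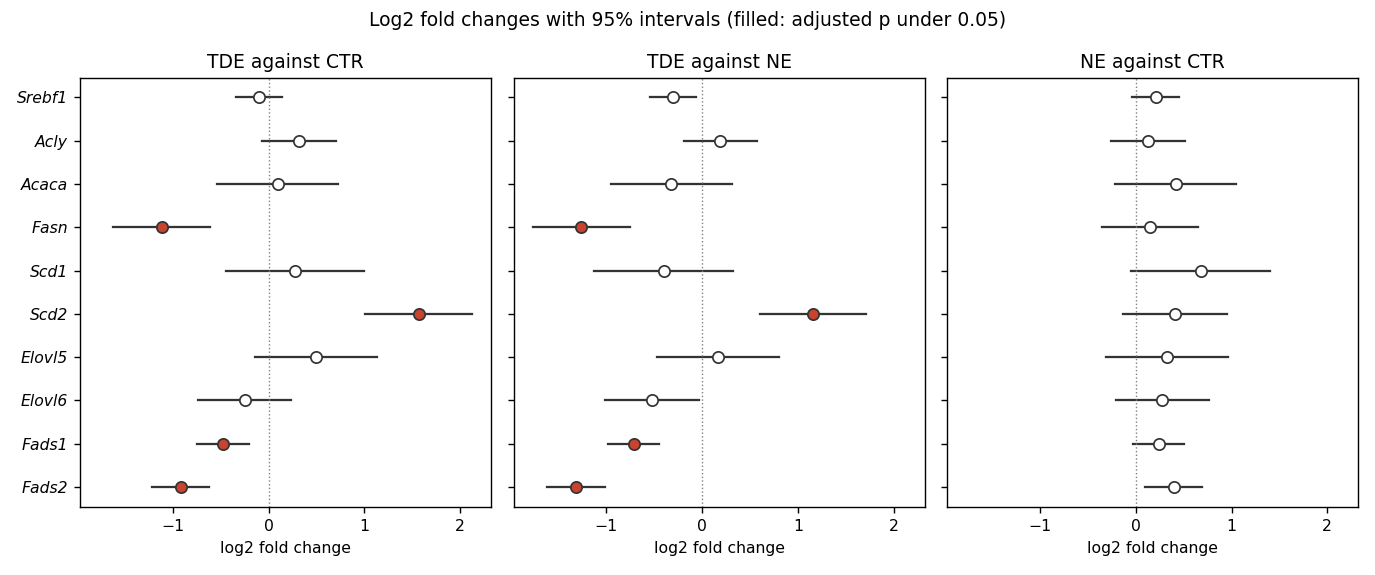
Log2 fold changes of the 10 genes (points) with 95% confidence intervals (lines) from edgeR's fit to all 9 libraries, in the 3 comparisons. Filled points have an adjusted p under 0.05: Scd2 to the right and Fasn, Fads1 and Fads2 to the left in both comparisons with TDE, and none in NE against CTR.

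With CTR replicate 1 left out, 5 of the 10 genes passed against CTR, Elovl6 joining the 4 named above, and 7 passed against NE, with Srebf1, Scd1 and Elovl6 lower as well. In that fit 34.4% and 40.7% of all genes tested passed, so that many more genes of every kind were called. In a fit to the NE and TDE libraries alone, 7 of the 10 passed too, where 41.9% of all genes tested did.

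NE exosomes left all 10 genes uncalled. No gene of the whole table passed in NE against CTR (0.0%). An unadjusted p under 0.05 was found for 487 of the 15028 genes tested, Fads2 among them, which is a smaller share than 0.05. DESeq2 and limma voom with quality weights called 3 and 18 genes, none of the 10. The means of all 10 genes were nevertheless higher in NE than in CTR, by log2 fold changes from 0.13 for Acly to 0.68 for Scd1, and the median of the 10 was 0.30 beside 0.00 over all genes tested. For 5 of the 10, Srebf1, Scd1, Elovl5, Fads1 and Fads2, every NE library lay above every CTR library, which was so for 4.07% of all genes tested. Without CTR replicate 1 the same count was 5 of 10 beside 6.38% of all genes, 9 of the 10 genes were higher in NE, and the median fell to 0.18. The Fads2 interval (0.10 to 0.69 on the log2 scale) was the only one of the 10 that did not reach 0, and its adjusted p was 0.659.

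Divided by gene length, the order of the genes in TDE-treated BMDCs was Scd2 at 161 ± 1.95 CPM per kb, Acly at 56.7 ± 0.982, Elovl5 at 41.6 ± 2.86, Srebf1 at 19.1 ± 0.486, Fads1 at 15.5 ± 0.697 and Scd1 at 9.38 ± 0.980 CPM per kb (SD, n = 3). Acaca (4.61 ± 0.523) and Fads2 (4.26 ± 0.408) overlapped, as did Fasn (2.997 ± 0.371) and Elovl6 (2.43 ± 0.284). In CTR BMDCs Scd2 was also first, at 54.2 ± 17.9 CPM per kb, but its libraries overlapped those of Acly (45.5 ± 8.33). Below them every neighbour overlapped the next except Srebf1 (20.5 ± 0.742) and Fads2 (8.06 ± 0.795). Fads2 was thus sixth in CTR and eighth in TDE by mean, and Srebf1 and Fads1 exchanged places.

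**Figure D4:**
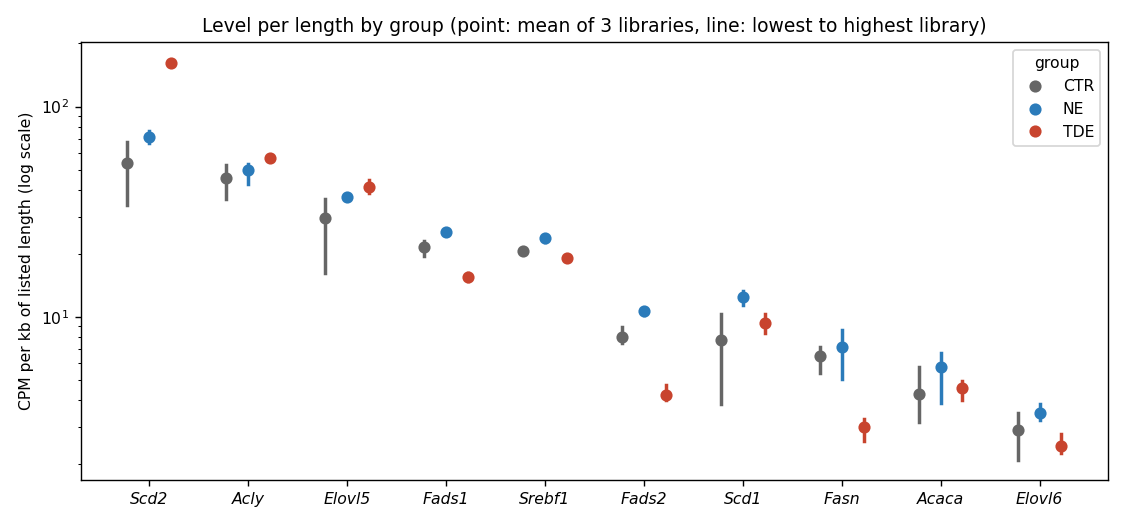
Level per kilobase of listed gene length of the 10 genes, on a log axis, ordered by the CTR mean. Points are means of 3 libraries and lines run from the lowest to the highest library. Scd2 reaches 161 CPM per kb in TDE against 54.2 in CTR, while Fads2 drops from 8.06 to 4.26 and Fasn from 6.49 to 2.997.

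Lists of neighbouring genes place the 10 genes in their pathway. Over all genes tested, 7.57% were higher and 9.34% lower in TDE than in CTR, and 6.73% higher and 7.21% lower than in NE. A count near these shares is not particular to its list. A list for SREBP and LXR control also held regulators of other kinds, such as Mid1ip1. Of its 17 tested genes, 1 was higher and 2 were lower in TDE than in CTR, with a median log2 fold change of -0.09. Insig2, which holds SREBP in the endoplasmic reticulum, was higher at 27.9 to 29.6 CPM against 11.5 to 20.4 CPM in CTR (log2 fold change 0.75, SE 0.21, adjusted p = 0.0414). CTR replicate 1 was its lowest library, and without that library the log2 fold change was 0.53 (adjusted p = 0.00218). Scap, the escort that carries SREBP to the Golgi, was lower at 19.9 to 20.6 CPM against 29.6 to 31.5 CPM (log2 fold change -0.60, adjusted p = 0.00733), and Mid1ip1, which promotes polymerization of acetyl-CoA carboxylase, was lower at 50.2 to 53.3 CPM against 71.1 to 90.6 CPM (log2 fold change -0.63, adjusted p = 0.0267). Against NE none of the 17 was higher and 4 were lower, Scap, Mid1ip1, Srebf2 and Insig1. With CTR replicate 1 left out, 3 of the 17 were higher and 4 lower against CTR, and 2 were higher and 5 lower against NE. In that fit 34.4% of all genes tested passed against CTR and 40.7% against NE. These shares also stand beside the counts without CTR replicate 1 in the lists below.

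Of 7 tested genes that supply acetyl-CoA and NADPH 2 were higher and none lower against CTR, with a median log2 fold change of 0.30. Acss2, which makes acetyl-CoA from acetate, stood at 26.1 to 29.8 CPM in TDE against 16.4 to 19.9 CPM in CTR (log2 fold change 0.66, adjusted p = 0.0176), and Cs, citrate synthase, at 190.2 to 202 CPM against 128 to 152 CPM (log2 fold change 0.44, adjusted p = 0.0399). Against NE 1 of the 7, Acss2, passed. Leaving out CTR replicate 1 gave 4 higher against CTR and 3 against NE, and none lower.

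The other carboxylase and elongase genes gave a mixed picture. Of 6 genes for the mitochondrial carboxylase and mitochondrial fatty acid synthesis, 1 was higher against CTR and none lower (median -0.16): Acacb, the mitochondrial acetyl-CoA carboxylase whose product restrains fatty acid oxidation, stood at 2.61 to 4.21 CPM in TDE against 0.632 to 1.06 CPM in CTR (log2 fold change 1.93, adjusted p = 0.00889). Of 9 tested enzymes of the elongation cycle, 1 was higher and 2 were lower against CTR (median -0.19). Hacd4, a dehydratase of the cycle, was higher at 279.6 to 285 CPM against 130.0 to 199 CPM (log2 fold change 0.71, adjusted p = 0.0306). Elovl1, the elongase of very long saturated chains, was lower at 42.5 to 45.6 CPM against 65.6 to 124 CPM (log2 fold change -1.03, adjusted p = 0.0170). CTR replicate 1 was the lowest library for Hacd4 and the highest for Elovl1. Without it the log2 fold changes were 0.54 (adjusted p = 0.00263) and -0.73 (adjusted p = 0.000354). Elovl3 was the other lower gene but lay at 0.00 to 0.111 CPM in TDE libraries, under the floor. Of 6 other desaturases and electron donors 1 was lower and none higher (median -0.30), the outer-membrane cytochrome Cyb5b at 70.1 to 74.0 CPM against 92.0 to 104 CPM (log2 fold change -0.45, adjusted p = 0.0270). When CTR replicate 1 was left out, the list with Acacb had 2 genes higher against CTR, the elongation cycle 3 higher and 3 lower, and the desaturases and electron donors still 1 lower.

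Most of the listed targets of SREBP2 were lower. Of 11 tested genes for sterol synthesis and uptake, 7 were lower and none higher against CTR, and 9 were lower and none higher against NE, with median log2 fold changes of -1.14 and -1.48. In the fit that left out CTR replicate 1, 10 were lower and 1 was higher in both. Cyp51, the sterol demethylase, stood at 12.8 to 13.8 CPM in TDE against 59.8 to 68.3 CPM in CTR (log2 fold change -2.28, adjusted p = 6.1e-05), and Idi1, isopentenyl isomerase, at 18.3 to 21.9 against 71.5 to 97.4 CPM (-2.12, adjusted p = 0.000297). Fdps, farnesyl diphosphate synthase, fell from 44.2 to 178 CPM in CTR to 14.8 to 16.4 CPM (-2.54, adjusted p = 0.0114), with CTR replicate 1 as the highest library, and without that library the log2 fold change was -1.64 (adjusted p = 3.5e-05). Fasn, Fads1 and Fads2 moved in the direction of these 7 genes and Scd2 in the other. Of 5 other LXR targets 1 was lower and none higher against CTR (median 0.13). That gene was Apoe, apolipoprotein E, at 181 to 195 CPM in TDE against 2001 to 7898 CPM (log2 fold change -4.46, adjusted p = 0.00146). CTR replicate 1 was again the highest library, and without it the log2 fold change of Apoe was -3.58 (adjusted p = 9.3e-07) and 2 of the 5 genes were lower. Of the 14 genes of these lists that are named with a call against CTR, 5 were called with any one library left out: Scap, Acacb, Cyp51, Idi1 and Apoe. The other 9 lost the call without any one TDE library, and some without others too, with adjusted p up to 0.153.

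**Figure D5:**
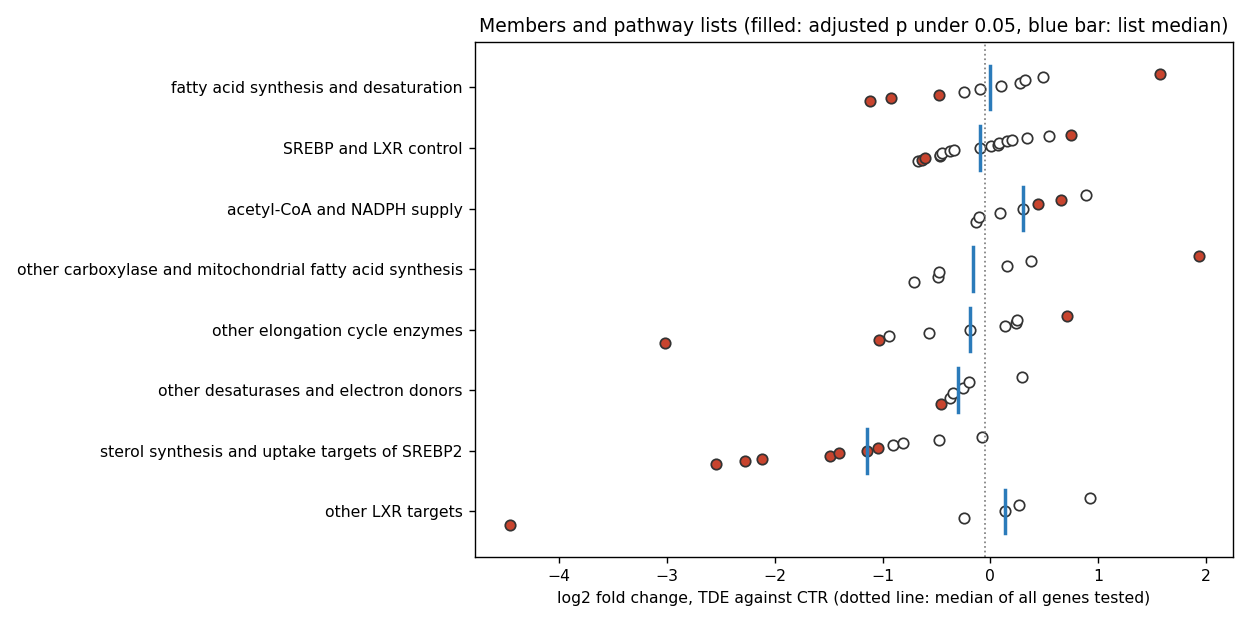
Log2 fold changes of TDE against CTR for the 10 genes (top) and the genes tested in 7 lists of the surrounding pathways, with filled points for an adjusted p under 0.05, blue bars for list medians and a dotted line at the median of all genes tested (-0.055). The sterol list lies to the left with a median of -1.14, and the 10 genes spread from -1.11 to 1.57 around a median of -0.003.

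The genes whose profile was most like that of Scd2 over the 9 libraries, by the root mean square difference of centred log2 CPM, were Cep83 (0.087), Helb (0.106), Osbpl3 (0.118) and Narf (0.119). Each was higher in TDE than in CTR, for Osbpl3, an oxysterol-binding protein relative, from a mean of 43.7 to 144 CPM. The genes most like Fasn were 4930512J16Rik (0.145), Cluh (0.157), Sfxn2 (0.161) and Apbb2 (0.179), and Cluh, which binds mRNAs of mitochondrial proteins, went from a mean of 47.0 CPM in CTR to 23.1 CPM in TDE. The 4 genes were chosen for this likeness, so their fold changes are a description.

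Markers of other cells moved along with the TDE libraries. The counts of markers stand beside 7.57% of all genes tested higher and 9.34% lower against CTR. Without CTR replicate 1, 34.4% of all genes tested passed against CTR. Against CTR all 6 markers of eosinophils, basophils and mast cells were lower, with a summed level of 108 to 131 CPM in TDE, 494 to 564 CPM in NE and 464 to 1543 CPM in CTR libraries. Of 8 neutrophil markers 7 were lower, among them Ltf, Ly6g, Camp and Elane, summing to 3020.2 to 3311 CPM in TDE, 7323 to 10573 CPM in NE and 6942.5 to 27993 CPM in CTR, the highest being CTR replicate 1. Camp, a granule peptide, was at 20.0 to 22.4 CPM in TDE against 178 to 1203.5 CPM in CTR, and Mcpt8, a basophil protease, at 6.43 to 7.32 against 35.2 to 192 CPM. The lymphocyte markers tested, among them Nkg7 and Cd79a, were lower too, and the list summed to 7.65 to 8.72 CPM in TDE and 14.2 to 31.2 CPM in CTR. CTR replicate 1 moved the size of several of these differences. Without it the log2 fold change was -3.37 instead of -4.70 for Camp, -2.56 instead of -3.70 for Mcpt8, -2.23 instead of -3.01 for Prg2, -1.34 instead of -2.18 for Elane and -1.34 instead of -2.10 for Nkg7, all still called.

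Of 7 macrophage markers 1 was higher, Adgre1 at 2114 to 2312 CPM against 206 to 480 CPM in CTR, and 1 was lower, and the list summed to 5107 to 5472 CPM in TDE and 3249 to 3670 CPM in CTR. Of 8 dendritic cell markers 2 were lower, Cd74 at 843 to 890 against 2057 to 8675.5 CPM and H2-Ab1 at 406 to 437 against 603 to 1583 CPM, and the sum was 1480.4 to 1557 CPM in TDE and 2965 to 10583 CPM in CTR, the highest being CTR replicate 1 and the other 2 libraries reaching 3687 CPM at most. Without that library 1 of the 8 was higher and 5 were lower. The log2 fold change was then -1.445 instead of -2.36 for Cd74 and -0.72 instead of -1.23 for H2-Ab1. Of the macrophage markers 2 were then higher and 3 lower. Of 5 proliferation markers 1 was higher, Mki67 at 174 to 190 against 87.3 to 132 CPM, and 1 was lower, Mcm5 at 11.2 to 13.1 against 18.3 to 21.5 CPM, and without CTR replicate 1 there were 3 higher and 1 lower. Of the 18 named markers with a call, 9 were called with any one library left out: Adgre1, Camp, Ltf, Ly6g, Mcpt8, Prg2, Fcer1a, Cpa3 and Dcn. The part of these shifts in the levels of Scd2, Fasn, Fads1 and Fads2 was not tested.

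Markers of adipocytes, fibroblasts and epithelial cells were low. The adipocyte markers summed to no more than 0.109 CPM in any library, Plin1 being at 0.0634 CPM at most and Lep and Cidec at 0 in all 9. Of 5 fibroblast markers tested 2 were higher in TDE, Dcn at 3.08 to 3.49 against 0.127 to 0.587 CPM and Pdgfrb at 3.17 to 3.82 against 1.49 to 2.22 CPM, and the list summed to 10.8 CPM at most. Dcn lay under the floor in CTR replicate 1, and its log2 fold change was 3.23 with all libraries and 3.89 without CTR replicate 2, its highest CTR library. Leaving out CTR replicate 1 gave 2 higher and 1 lower of the 5. Of 2 epithelial markers tested 1 was lower, Cdh1 at 4.10 to 4.81 against 5.96 to 8.08 CPM.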

How the data were processed

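Reads per gene were compared between BMDCs that received no exosomes (CTR), exosomes of NIH-3T3 cells (NE) or exosomes of tumor cells (TDE), with 3 libraries each. The table that the authors deposited holds expected counts (estimated counts of reads, not normalized) of 57238 entries, a gene length, and means per group, which were not used. The submitters' processing notes name TopHat2 2.1.1, DESeq2 1.24.0 and R 3.3.1. The read counter, the annotation and the build are not given in the sources used here. Fractional estimated counts arise where a read is divided between genes, which bears on paralogs such as Scd1 and Scd2.

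Estimated counts were rounded, filtered with filterByExpr on the 3 groups (15028 genes) and normalized by TMM. The fit, in edgeR 4.0.16 (R 4.3.3), had 1 mean for each group over the 9 libraries, and the quasi-likelihood F test was used with Benjamini-Hochberg adjustment, a threshold of 0.05 and no limit on fold. The standard error was the log2 fold change divided by the square root of F. Ratios between genes were log2 of reads plus 0.5 per base of listed length, compared by a two-sided exact permutation test. Intervals are 95% confidence intervals, and the floor of 3 reads covers counting error only.

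Alternatives were median-ratio factors, library totals, no filter, DESeq2 1.42.0, limma 3.58.1 (voom with quality weights), the pair of groups alone, the replicate number as a block, and leaving out each library. For ratios they were a pseudocount of 1, the block and each library left out. The fit was tested on simulated data.

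The genes and all lists were chosen with earlier results of these data known. Named are all 10 genes, from each list up to 4 genes that rose most and 4 that fell most among those called in TDE against CTR, or its most abundant gene where none did, and the 4 genes most like the member that rose most and the member that fell most. Markers named as present, the paralogs Scd3 and Scd4 and the other regulators called against NE were named after their values were seen. So were the overlapping genes Rai1 and Gm35986, and Hmgcs1. Some genes that this rule would name are not reported here. All 55536 Ensembl identifiers were found in GENCODE vM21 (GRCm38), which gave positions and transcripts. Promoter sequences came from a RefSeq table (GRCm38.p6), which held none for Scd1, Scd2 or Fads1. Versions were Python 3.11.15, numpy 2.4.6, pandas 2.3.3, scipy 1.17.1, matplotlib 3.10.9 and Biopython 1.88.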

Additional observations from a re-analysis of the deposited data

How the results depend on the processing

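Values in TDE against CTR, TDE against NE and NE against CTR are given in this order. The number of the 10 genes called (4, 4 and 0) ranged over the libraries left out in turn from 2 to 5, from 3 to 7 and stayed at 0. In TDE against NE it was 8 with limma voom and 7 with the pair of groups alone. The number of all genes called (2541, 2095 and 0) ranged from 1103 to 5263, from 970 to 6223 and from 0 to 3 over the left-out libraries, the highest each time without CTR replicate 1. It was 7886, 8311 and 18 with limma voom and quality weights, 1152 and 6072 with the pair of groups alone (TDE against CTR and against NE), 1285 and 1175 with the replicate block, and 3 in NE against CTR with DESeq2.

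Signs turned without CTR replicate 1 for Acaca and Scd1 in TDE against CTR and for Acly and the Elovl6 to Elovl5 ratio in NE against CTR, and without NE replicate 1 for Fasn in NE against CTR. Over the left-out libraries the log2 values of these 5 ranged, in this order, from -0.096 to 0.36, from -0.056 to 0.54, from -0.013 to 0.25, from -0.248 to 0.056 and from -0.001 to 0.33. The cause was not tested. The replicate numbers were not shown to pair the libraries: correlations of same-numbered deviations lay between -0.585 and 0.185, and a library matched its own number best in 3 of 18 cases. With the replicate block as a term, Fads1 in TDE against CTR (adjusted p = 0.102) and Scd2 in TDE against NE (adjusted p = 0.0513) were no longer called. With library totals in place of TMM these values were 0.199 and 0.0725, and library totals moved the median of all genes by 0.12 in NE against CTR. Fads1 in TDE against CTR also lost its call without the filter (adjusted p = 0.164) and with the pair of groups alone (adjusted p = 0.0827). It was called under 6 of the 16 alternatives. Scd2 and Fads2 in TDE against CTR, and Fasn, Fads1 and Fads2 in TDE against NE, were called under all 16 alternatives. Depth does not limit these genes, since the lowest, Elovl6, lay far above the floor of 3 reads.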
